A study of Mus musculus with 11 samples.

Results

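The genes described here encode the nuclear subunits of the respiratory chain and of ATP synthase, with cytochrome c and cytochrome c1. They were chosen by symbol: Nduf followed by a, b, c, s or v and a digit for complex I, Sdha to Sdhd for complex II, Uqcr and Cyc1 for complex III, Cycs for cytochrome c, Cox4 to Cox8 for complex IV and Atp5 for ATP synthase, also called complex V. The rule found 83 genes among the 18194 measured, namely 35 of complex I, 4 of complex II, 9 of complex III, cytochrome c, 17 of complex IV and 17 of ATP synthase. A further 7 symbols, among them Ndufa11 and Ndufs6, were carried only by probe sets with several symbols and were left out. Cox7b and the 13 subunits encoded in mitochondrial DNA were not analysed here.

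Splenic T cells came from female C57BL6 mice of 3 to 4 months, either wild type or crbn-/-, that is without cereblon, which brings substrates to a CUL4 ubiquitin ligase. Cells were purified by negative magnetic selection and either collected naive or kept for 12 hours with antibodies that engage the T cell receptor and its costimulator, plate-bound anti-CD3 at 5 µg/ml and soluble anti-CD28 at 1 µg/ml. Total RNA was hybridised to 11 Affymetrix arrays of the one-colour kind, of which 3 held RNA of wild-type naive cells, 3 that of knockout naive, 2 that of wild-type activated and 3 that of knockout activated cells. Arrays of a group are biological replicates by their labels, which name no culture without stimulus for the same time and do not say which part of Crbn was removed or whether the deletion was limited to T cells. The response to the antibodies therefore cannot be told apart from that to culture. In bulk RNA, fewer cells of a type and less RNA per cell cannot be told apart either, and all values are relative to the distribution of the whole array.

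The respiratory chain sits in the inner mitochondrial membrane. Complex I takes electrons from NADH and complex II takes them from succinate, both pass them to ubiquinone, complex III hands them on to cytochrome c, and complex IV gives them to oxygen. Complexes I, III and IV pump protons, and ATP synthase lets the protons back through a rotating ring to make ATP. Most subunits are encoded in the nucleus, and several complex IV subunits exist in a form made in most tissues and a form made mainly in muscle, lung or testis. Resting T cells live largely on oxidative phosphorylation, and cells that enter growth after stimulation enlarge both glycolysis and their mitochondria.

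The start regions of 6 members are shown because these genes span the responses found: Sdhd, Cycs, Atp5g1 and Ndufb6 rose on activation in both genotypes, and Cox7c and Cox7a2l fell in both. Each sequence is the 250 bases before the annotated start, on the strand of the gene, from RefSeq with the build GRCm38.p6, and capitals mark the motifs that were searched. All 6 genes lie on the minus strand, Sdhd at chr9:50603850-50604099, Cycs at chr6:50566570-50566819, Atp5g1 at chr11:96075632-96075881, Ndufb6 at chr4:40279422-40279671, Cox7c at chr13:86046796-86047045 and Cox7a2l at chr17:83514334-83514583.
Sdhd: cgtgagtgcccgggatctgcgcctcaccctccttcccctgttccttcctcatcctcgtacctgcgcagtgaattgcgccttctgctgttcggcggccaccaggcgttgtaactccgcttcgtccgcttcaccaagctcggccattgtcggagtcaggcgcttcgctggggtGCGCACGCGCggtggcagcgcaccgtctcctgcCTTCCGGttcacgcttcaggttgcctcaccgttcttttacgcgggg
Cycs: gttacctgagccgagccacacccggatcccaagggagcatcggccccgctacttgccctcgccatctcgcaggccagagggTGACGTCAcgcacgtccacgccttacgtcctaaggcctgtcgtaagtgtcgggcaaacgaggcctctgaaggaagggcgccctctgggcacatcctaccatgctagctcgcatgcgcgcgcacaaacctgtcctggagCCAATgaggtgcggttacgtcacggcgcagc
Atp5g1: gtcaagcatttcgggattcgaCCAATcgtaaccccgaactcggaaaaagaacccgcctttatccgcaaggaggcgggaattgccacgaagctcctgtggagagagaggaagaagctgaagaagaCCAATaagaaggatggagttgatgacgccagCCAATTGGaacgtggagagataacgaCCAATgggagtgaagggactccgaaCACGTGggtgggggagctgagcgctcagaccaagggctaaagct
Ndufb6: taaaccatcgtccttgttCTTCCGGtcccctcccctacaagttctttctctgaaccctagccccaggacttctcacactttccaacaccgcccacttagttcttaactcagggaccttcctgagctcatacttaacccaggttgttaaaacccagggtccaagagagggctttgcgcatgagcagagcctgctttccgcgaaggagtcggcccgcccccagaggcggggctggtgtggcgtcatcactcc
Cox7c: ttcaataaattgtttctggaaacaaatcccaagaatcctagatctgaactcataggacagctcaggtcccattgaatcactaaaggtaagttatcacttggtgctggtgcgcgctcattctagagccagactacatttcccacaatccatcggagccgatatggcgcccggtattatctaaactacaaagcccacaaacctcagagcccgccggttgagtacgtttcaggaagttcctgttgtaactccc
Cox7a2l: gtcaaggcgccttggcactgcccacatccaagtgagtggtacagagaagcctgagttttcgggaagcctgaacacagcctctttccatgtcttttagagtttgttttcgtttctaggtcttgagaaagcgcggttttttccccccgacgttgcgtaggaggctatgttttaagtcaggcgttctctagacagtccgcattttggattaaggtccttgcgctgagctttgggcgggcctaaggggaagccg

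The motifs were searched on both strands as GCGCA and GCGC with any single base between them for NRF1, CCGGAAG for ETS factors such as GABP, AAGATGGCG for YY1, TGACGTCA for the cyclic AMP response element, CACGTG for the E-box bound by MYC and MAX, and CCAAT. The Sdhd sequence holds an NRF1 match that begins 79 bases before the start and an ETS match 46 bases before it. Cycs, which encodes cytochrome c, holds a cyclic AMP response element 169 bases and a CCAAT box 31 bases before the start. Atp5g1 holds an E-box 44 bases before the start and 5 CCAAT boxes, of which those at 95 and 92 bases overlap on opposite strands. Ndufb6 holds an ETS match at 232 bases, and none of the 6 motifs occurs in the Cox7c or Cox7a2l window. Motifs did not follow the response throughout the members. The window of Ndufa12, which rose in both genotypes, holds none of the 6 motifs. That of Uqcrh, which fell in both, holds an ETS match at 10 bases and a CCAAT box at 52 bases. A promoter entry was matched for 67 of the 83 members, in 72 promoters. Windows of the same gene can overlap. The same site was counted in both promoters of Ndufa5 for NRF1, of Ndufa7 for the E-box and of Atp5c1 for CCAAT. The NRF1 motif occurred in 16.7% of the member promoters and in 3.74% of all 32851 promoters of the table, and the ETS motif in 16.7% and 6.91%. The shares were 5.56% and 1.55% for the cyclic AMP response element, 9.72% and 6.02% for the E-box, 41.7% and 33.8% for CCAAT, and 1.39% and 0.606% for YY1. A match describes the letters only and is not a measured binding site.

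Crbn itself checked the genotype. Its level, in RMA log2 units as all levels below, was 10.06, 10.21 and 10.09 in the wild-type naive arrays, 8.97, 9.07 and 8.91 in the knockout naive arrays, 9.71 and 9.47 in the wild-type activated arrays and 8.70, 8.77 and 8.58 in the knockout activated arrays. The 2 genotypes did not overlap in either state. The difference, knockout minus wild type, was -1.13 in naive cells with adjusted p = 8.72e-05 and -0.90 in activated cells with adjusted p = 0.00405, both from limma with Benjamini-Hochberg adjustment over all genes, as all adjusted p-values are. Array medians lay between 5.84 and 5.89. The summed level of 9 T cell markers, among them Cd3e and Cd2, was 15.12 to 15.28 in the naive arrays and 14.40 to 14.59 in the activated arrays. Summed markers of B cells were 13.59 to 13.98 in naive and 12.01 to 12.72 in activated arrays, and those of macrophages and monocytes 12.37 to 12.61 and 11.33 to 11.38. Sums of NK cell markers ran the other way, from 9.79 to 10.30 in naive and from 10.49 to 10.99 in activated arrays, although 1 of its 5 markers was called higher and 3 lower in wild-type cells and 1 higher and 4 lower in the knockout. Those of neutrophils were 9.03 to 10.70 and 8.67 to 9.08, those of dendritic cells 8.76 to 9.08 and 8.69 to 8.94, and those of platelets 9.96 to 10.20 and 9.41 to 9.67. Of 6 platelet markers 1 was called lower in wild-type cells, and 1 was called higher and 2 lower in the knockout. Of 6 dendritic markers 1 was called higher and 3 lower in wild-type cells, and 1 higher and 2 lower in the knockout. In wild-type cells 1 T cell marker was called higher. In both genotypes 7 of the 9 T cell markers, 5 of 9 B cell markers and 7 of 10 macrophage and monocyte markers were called lower after activation, and of these 3 lists 1 macrophage marker was below 4.57, the lowest lower quartile among the arrays, on all 11. Between genotypes the B cell sums did not overlap in either state. Wild type first, they were 13.59 to 13.73 and 13.75 to 13.98 in naive arrays. In activated arrays they were 12.01 to 12.40 and 12.43 to 12.72. Dendritic sums also did not overlap in either state, macrophage sums in naive arrays, and T cell and platelet sums in activated arrays. In naive cells 1 of 5 NK markers was called higher in the knockout (adjusted p = 0.0384). The part of other cell types in these changes and differences was not tested.

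Far more respiratory chain genes rose than fell on activation, most of them by small factors. In wild-type cells 43 of the 83 members rose and 7 fell, while 33 did not pass the threshold of adjusted p under 0.05. Of all genes 41.1% passed in this comparison, 20.2% upward and 20.9% downward, so the upward share of the members, 51.8%, lay above the background and the downward share, 8.43%, below it. That background includes dim genes, whereas 80 of the 83 members were never below 4.57, the lowest lower quartile among the arrays. A share for genes of like level was not set beside it. In knockout cells 51 members rose, 10 fell and 22 did not pass, beside 20.7% of all genes upward and 22.4% downward, 43.2% in all. The median difference of the members, activated minus naive, was 0.24 in wild-type and 0.29 in knockout cells, while that of all genes was 0.06 and -0.03. The middle 50% of the members lay between 0.08 and 0.41 in wild-type cells and between 0.0017 and 0.55 in knockout cells. Changes of at least 1.5-fold were called in 15 members in wild-type and 21 in knockout cells, 18.1% and 25.3%, which is near the 20.8% and 23.4% of all genes.

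Responses were shared between genotypes to a large extent, among all genes as well as the members, and the 2 activation comparisons share no array. A total of 42 members rose in both, which is 97.7% of those that rose in wild-type and 82.4% of those that rose in knockout cells, beside 79.5% and 77.4% of the rises over all genes. Another 6 fell in both, 85.7% and 60% of the respective falls, beside 87.3% and 81.4% over all genes, and 0 passed in opposite directions. Only 2 members, Cox6b2 and the ATP synthase subunit Atp5mpl, passed in wild-type cells alone, the latter at 0.19 (adjusted p = 0.0378) and in 4 of the 11 fits that each left out 1 array, not without any single wild-type array, knockout naive array 1 or knockout activated array 3, at 0.19 to 0.20; 13 passed in knockout cells alone and 20 in neither, a split that the interaction test described further on did not separate. The naive and activated arrays of a member did not overlap in 68 members in wild-type cells, of which 50 were called, beside 57% of all genes. They did not overlap in 69 members in knockout cells, of which 60 were called, beside 52.5% of all genes.

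**Figure D1:**
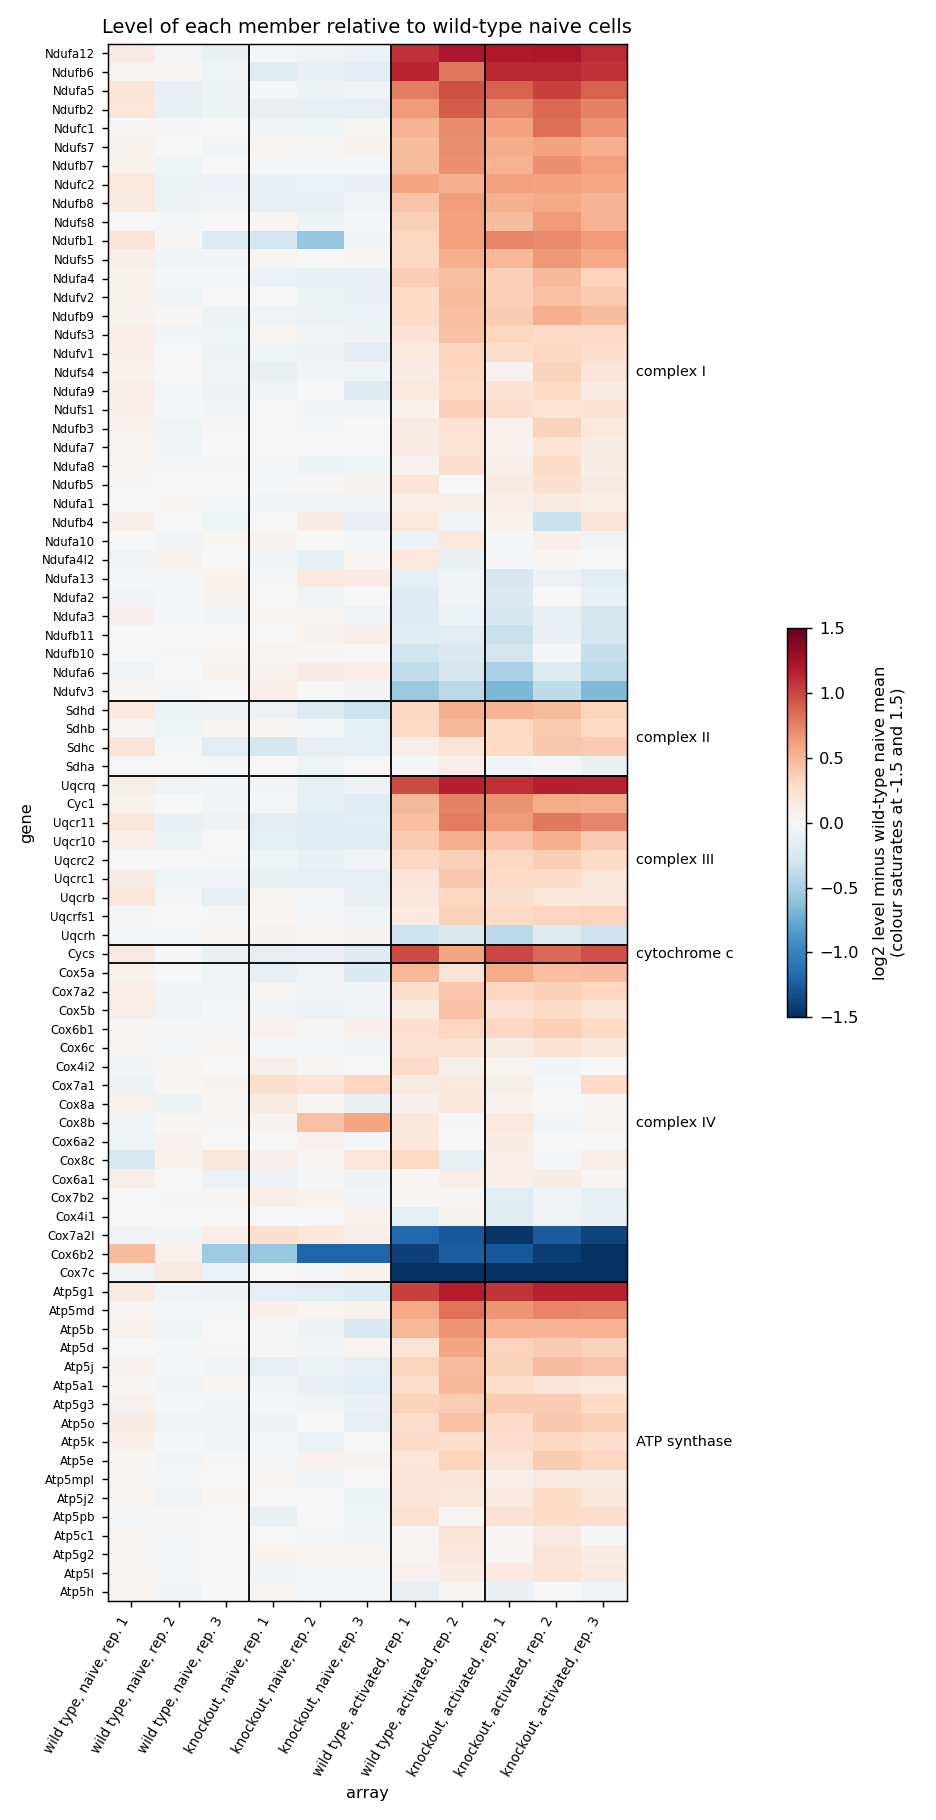
Level of each of the 83 members in each of the 11 arrays, as log2 difference from the mean of the wild-type naive arrays; rows are genes grouped by complex and ordered by the wild-type change, columns are arrays grouped by genotype and state. Red marks higher and blue lower levels, with the colour saturating at 1.5 log2 units; the activated arrays of both genotypes are red for most genes, and Cox7c, Cox7a2l and Cox6b2 are the deepest blue.

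In complex I, 17 of 35 members rose and 3 fell in wild-type cells, and 21 rose and 6 fell in knockout cells, with medians of 0.22 and 0.29. Ndufa12, an accessory subunit of the matrix arm that is fitted late in assembly, had levels of 11.13, 10.99 and 10.91 in the wild-type naive arrays, 10.99, 10.96 and 10.92 in the knockout naive arrays, 12.10 and 12.22 in the wild-type activated arrays and 12.21, 12.23 and 12.14 in the knockout activated arrays. All activated arrays lay about 1 log2 unit above all naive arrays. It rose by 1.15 (SE 0.0822, 2.22-fold, adjusted p = 2.02e-07) in wild-type cells and by 1.23 (SE 0.0735, 2.35-fold, adjusted p = 1.93e-08) in knockout cells. Ndufb6, an accessory subunit of the membrane arm, had levels of 10.70, 10.69 and 10.59 in the wild-type naive arrays, 10.49, 10.56 and 10.49 in the knockout naive arrays, 11.80 and 11.45 in the wild-type activated arrays and 11.80, 11.79 and 11.74 in the knockout activated arrays. Its second wild-type activated array was the lowest of the 5 activated arrays but still above every naive array. The rise was 0.96 (SE 0.0956, adjusted p = 3.16e-06) and 1.26 (SE 0.0855, adjusted p = 5.75e-08).

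Ndufa5, an accessory subunit of the matrix arm, rose by 0.86 (adjusted p = 1.44e-05) in wild-type and 0.98 (adjusted p = 1.02e-06) in knockout cells. Ndufb1, a small subunit of the membrane arm, had levels of 7.10, 6.93 and 6.71 in the wild-type naive arrays, 6.63, 6.33 and 6.86 in the knockout naive arrays, 7.23 and 7.52 in the wild-type activated arrays and 7.65, 7.62 and 7.56 in the knockout activated arrays. Its naive arrays were spread from 6.33 to 7.10, and all lay below the activated arrays. The rise was 0.47 (adjusted p = 0.0229) in wild-type and 1.00 (adjusted p = 2.88e-05) in knockout cells. The wild-type call was lost without activated array 2, at 0.32 with adjusted p = 0.208, and without naive array 3, at 0.36 with adjusted p = 0.078. Of the 6 measured core subunits of the matrix arm, the arm that carries the flavin and the iron-sulphur clusters, most rose. In wild-type cells 5 of 6 rose and in knockout cells 6 of 6, with medians of 0.35 and 0.41. Their differences ranged from 0.21 to 0.59 in wild-type and from 0.25 to 0.57 in knockout cells. Among them Ndufs7 rose by 0.59 and 0.53, Ndufs8 by 0.49 and 0.57, and Ndufv1, which binds NADH, by 0.24 and 0.37. The wild-type call for Ndufv1 was lost without activated array 2, at 0.16, and without naive array 2 or 3, at 0.24 and 0.21, and its second probe set did not pass in wild-type cells, at 0.25 with adjusted p = 0.0723. A dimmer Ndufs8 probe set, of mean level 8.26, differed by 0.17 and 0.083 without passing. Of the 29 accessory members, 12 rose and 3 fell in wild-type and 15 rose and 6 fell in knockout cells, with medians of 0.18 and 0.21. These subgroups within the complexes were set after the values were seen. Ndufa4 was placed in complex I by its symbol but is now counted with complex IV, and rose by 0.41 and 0.49.

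The falls in complex I concerned accessory subunits. Ndufv3, a small subunit beside the flavin site, had levels of 10.89, 10.86 and 10.87 in the wild-type naive arrays, 10.95, 10.87 and 10.83 in the knockout naive arrays, 10.31 and 10.48 in the wild-type activated arrays and 10.20, 10.50 and 10.21 in the knockout activated arrays. No activated array reached a naive one, and the difference was -0.48 (adjusted p = 0.00129) in wild-type and -0.58 (adjusted p = 8.43e-05) in knockout cells. Ndufa6, an accessory subunit of the matrix arm, fell by 0.31 (adjusted p = 0.0124) and 0.45 (adjusted p = 3.25e-04). Ndufb10, of the membrane arm, fell by 0.26 (adjusted p = 0.0358) and 0.24 (adjusted p = 0.0268). In wild-type cells the call for Ndufa6 was lost without activated array 1, at -0.25 with adjusted p = 0.091. The wild-type call for Ndufb10 was lost without any single wild-type array, with values from -0.29 to -0.22 and adjusted p from 0.059 to 0.16. Its knockout call was lost without any single knockout naive array and without knockout activated array 1 or 3, with values from -0.25 to -0.18 and adjusted p from 0.0515 to 0.126. With each array centred on its median, which moved the median of all genes to 0.13 in wild-type cells, both wild-type falls kept their sign and missed the threshold, at -0.23 with adjusted p = 0.051 and -0.18 with adjusted p = 0.11. Ndufb11, a membrane arm subunit encoded on the X chromosome, fell by 0.28 (adjusted p = 0.00507) in knockout cells and differed by -0.18 (adjusted p = 0.0962) in wild-type cells. Its second probe set, of mean level 11.88 beside 12.05, was called lower in wild-type cells too, at -0.22 with adjusted p = 0.038. The third was not, at -0.19 with adjusted p = 0.0967.

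**Figure D2:**
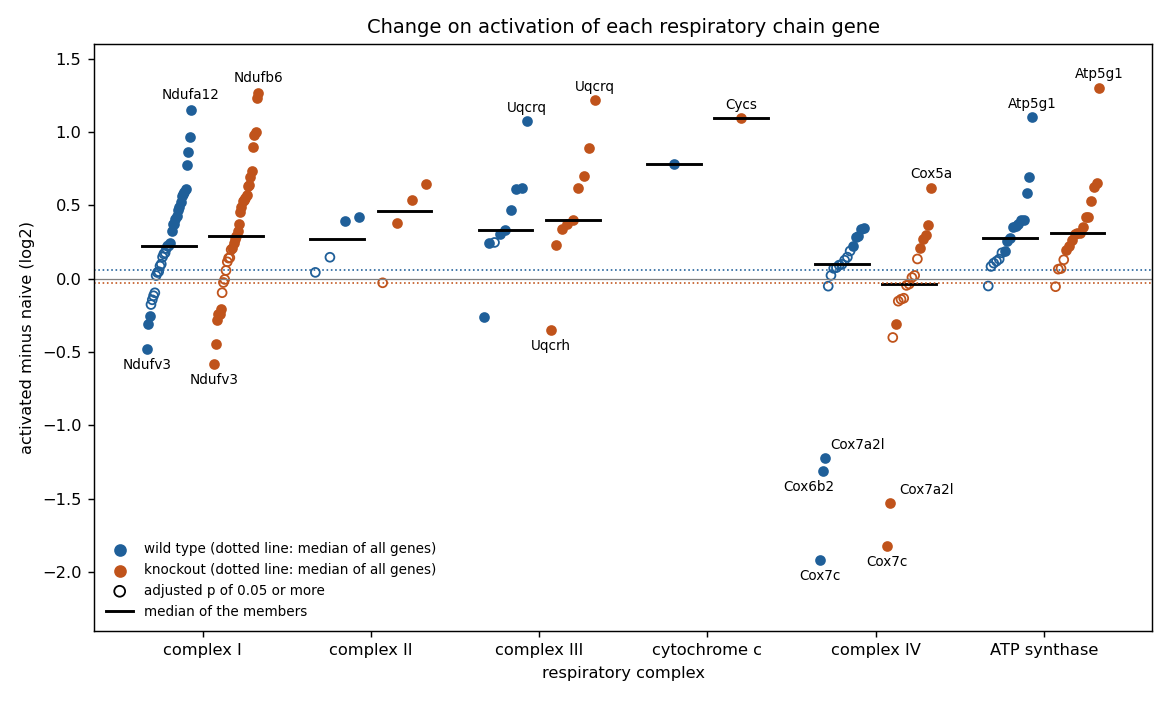
Change on activation (activated minus naive, log2) of each member by complex, wild type in blue and knockout in orange; each point is 1 gene, open points have an adjusted p of 0.05 or more, bars are medians over the members of a complex and dotted lines the medians of all 18194 genes. The members of complexes I, II, III and ATP synthase lie mostly above the dotted lines, with complex III medians of 0.33 and 0.40. Complex IV members centre on 0.10 and -0.04, which became 0.18 and 0.047 with arrays centred on their medians. Complex IV holds the 3 deepest falls in wild-type cells, and in knockout cells the deepest falls are those of Cox7c and Cox7a2l.

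Complex II, succinate dehydrogenase, had 4 members with unlike responses. Sdha, the flavoprotein that oxidises succinate, had levels of 11.08, 11.08 and 11.06 in the wild-type naive arrays, 11.07, 11.01 and 11.07 in the knockout naive arrays, 11.06 and 11.17 in the wild-type activated arrays and 11.03, 11.06 and 10.98 in the knockout activated arrays. The groups overlapped, and the differences were 0.04 (adjusted p = 0.668) and -0.03 (adjusted p = 0.773). A second Sdha probe set, with a mean level of 10.11, differed by -0.57 and -0.56 and was called lower in both, so the files do not settle a direction for Sdha. Sdhb, the iron-sulphur subunit, rose by 0.39 (adjusted p = 0.00207) and 0.38 (adjusted p = 8.81e-04).

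The membrane anchors of complex II are Sdhc and Sdhd. Sdhd had levels of 10.63, 10.40 and 10.41 in the wild-type naive arrays, 10.39, 10.27 and 10.15 in the knockout naive arrays, 10.79 and 11.01 in the wild-type activated arrays and 10.98, 10.95 and 10.81 in the knockout activated arrays. No naive array reached an activated one. Sdhd rose by 0.42 (SE 0.105, adjusted p = 0.00537) in wild-type and 0.65 (SE 0.094, adjusted p = 6.63e-05) in knockout cells. Without wild-type activated array 2 the wild-type rise was 0.31 with adjusted p = 0.0739. Sdhc had levels of 8.97, 8.74 and 8.61 in the wild-type naive arrays, 8.51, 8.65 and 8.64 in the knockout naive arrays, 8.87 and 8.97 in the wild-type activated arrays and 9.07, 9.17 and 9.17 in the knockout activated arrays. The wild-type arrays overlapped, because naive array 1 was as high as the higher activated array, whereas the knockout arrays did not overlap. The difference was 0.15 (adjusted p = 0.282) in wild-type cells and a rise of 0.54 (adjusted p = 2.35e-04) in knockout cells. A second Sdhc probe set of nearly the same mean level, 8.66 beside 8.85, differed by 0.14 and 0.17 and passed in neither genotype (adjusted p = 0.202 and 0.0666). Without wild-type naive array 1 the wild-type difference was 0.25 with adjusted p = 0.0499, which passes the threshold.

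In complex III, 7 of 9 members rose and 1 fell in wild-type cells, and 8 rose and 1 fell in knockout cells, with medians of 0.33 and 0.40. Uqcrq, a small subunit next to cytochrome b, had levels of 11.02, 10.87 and 10.89 in the wild-type naive arrays, 10.89, 10.79 and 10.85 in the knockout naive arrays, 11.90 and 12.09 in the wild-type activated arrays and 12.02, 12.09 and 12.08 in the knockout activated arrays. No activated array was below 11.90 and no naive array above 11.02. The rise was 1.07 (SE 0.0817, 2.10-fold, adjusted p = 3.52e-07) and 1.22 (SE 0.0731, 2.33-fold, adjusted p = 2.05e-08). The 3 other probe sets of Uqcrq were dim, with mean levels of 6.43, 6.16 and 5.18, and the brightest of these differed by -0.20 and -0.19 without passing. The next differed by 0.19 and 0.044 without passing. The dimmest differed by 0.28 and 0.42 and was called higher in knockout cells alone (adjusted p = 0.00501). Cyc1, cytochrome c1, which passes electrons to cytochrome c, rose by 0.62 (adjusted p = 9.48e-05) and 0.70 (adjusted p = 7.63e-06). Uqcr11, a small membrane subunit, rose by 0.61 (adjusted p = 3.91e-04) and 0.89 (adjusted p = 3.58e-06).

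Uqcrh, the hinge subunit at the contact between cytochrome c1 and cytochrome c, went the other way. It fell by 0.26 (adjusted p = 0.0161) in wild-type and 0.35 (adjusted p = 8.57e-04) in knockout cells, and its second probe set differed by -0.30 and -0.42, both called. In wild-type cells the call was lost without activated array 1, at -0.21 with adjusted p = 0.0951, and with centred arrays, at -0.18 with adjusted p = 0.077. Cycs, the mobile carrier between complexes III and IV, had levels of 12.09, 11.92 and 11.83 in the wild-type naive arrays, 11.80, 11.83 and 11.76 in the knockout naive arrays, 12.92 and 12.53 in the wild-type activated arrays and 12.95, 12.79 and 12.91 in the knockout activated arrays. The activated arrays were all above the naive arrays, with the second wild-type activated array the lowest of them. Cycs rose by 0.78 (SE 0.112, 1.72-fold, adjusted p = 7.74e-05) in wild-type and 1.09 (SE 0.0998, 2.13-fold, adjusted p = 8.63e-07) in knockout cells. The next brightest probe sets of Cycs, with mean levels of 11.49 and 10.51, rose by 1.20 and 0.93 in wild-type and by 1.48 and 1.33 in knockout cells.

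**Figure D3:**
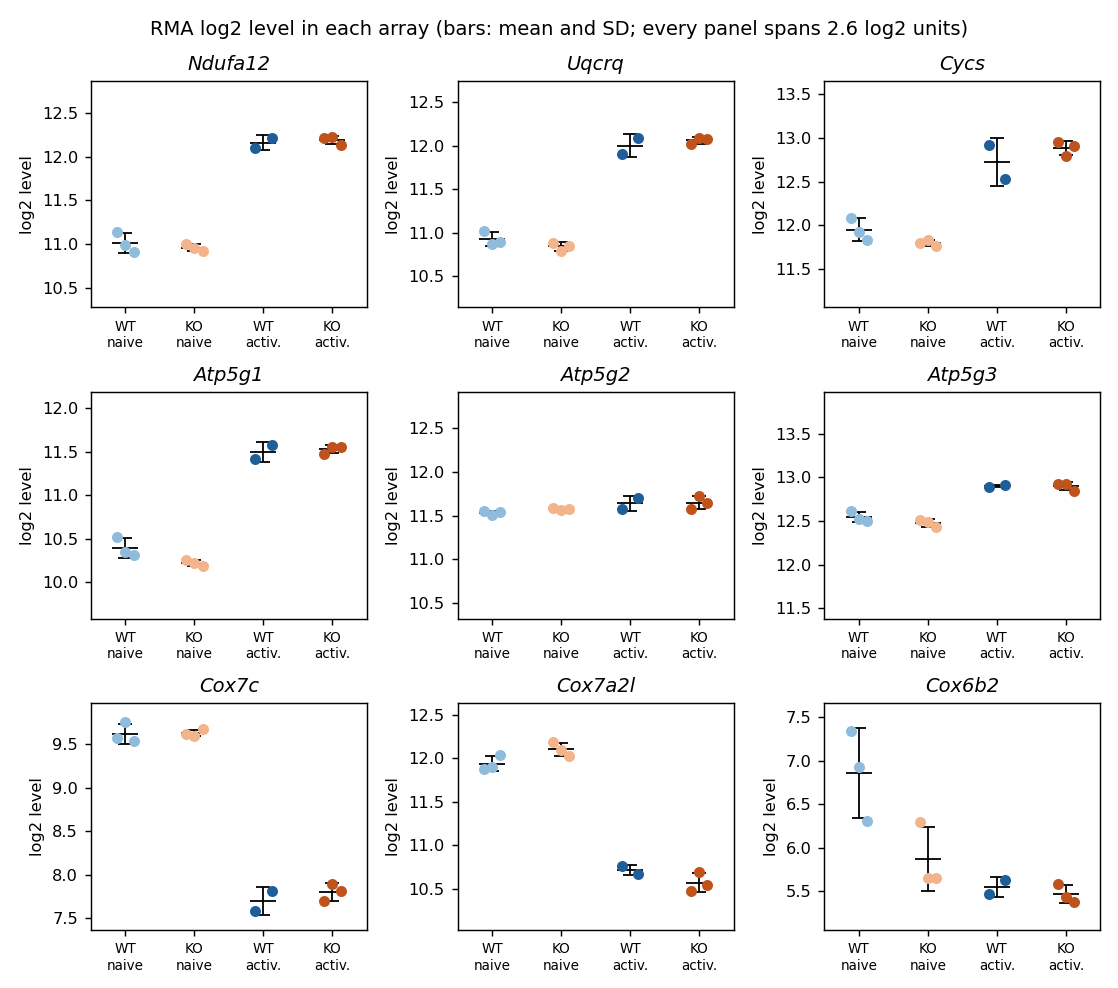
RMA log2 level of 9 members in every array, by group (WT wild type, KO knockout); points are arrays, bars the mean and SD, and every panel spans 2.6 log2 units. Ndufa12, Uqcrq, Cycs and Atp5g1 are higher in all activated arrays, Atp5g3 rises less and the Atp5g2 groups lie close together, Cox7c and Cox7a2l are lower in all activated arrays, and Cox6b2 is spread over 1 log2 unit within the wild-type naive group.

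Complex IV, cytochrome c oxidase, had members in both directions. In each genotype 5 of its 17 members rose and 3 fell, 29.4% and 17.6%, which is near the shares of all genes given above, and its medians, 0.10 for the wild type and -0.04 for the knockout, turned to 0.18 and 0.047 with each array centred on its median. Of the 9 subunits made in most tissues, 5 rose and 1 fell in each genotype, and of the 7 forms known mainly from muscle, lung or testis 0 rose and 1 fell in each, Cox7a2l being counted in neither group. Cox5a, a core-contacting subunit on the matrix side, rose by 0.34 (adjusted p = 0.0103) and 0.62 (adjusted p = 3.59e-05), and without wild-type activated array 1 by 0.19 with adjusted p = 0.14, which does not pass. Cox7a2, the general form of subunit VIIa, rose by 0.34 (adjusted p = 0.00356) and 0.37 (adjusted p = 7.09e-04). Cox5b, the zinc-binding subunit, rose by 0.29 (adjusted p = 0.0188) and 0.30 (adjusted p = 0.00779). The wild-type call for Cox5b was lost without activated array 2, at 0.15 with adjusted p = 0.207, and without naive array 2, at 0.27 with adjusted p = 0.0632. As the mean of its probe sets Cox5b differed by 0.12 and 0.095 and passed in neither genotype. Cox6b1 rose by 0.29 and 0.27, and Cox6c by 0.22 and 0.21. The call for Cox6c was lost in wild-type cells without activated array 2 or naive array 2, at 0.21 in each case, and in knockout cells without activated array 2, at 0.18.

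The deepest falls of all members were those of Cox7c, a small membrane subunit of complex IV. Its levels were 9.57, 9.75 and 9.54 in the wild-type naive arrays, 9.61, 9.60 and 9.67 in the knockout naive arrays, 7.59 and 7.81 in the wild-type activated arrays and 7.70, 7.90 and 7.81 in the knockout activated arrays. The naive arrays of both genotypes lay between 9.54 and 9.75 and the activated arrays between 7.59 and 7.90. Cox7c differed by -1.92 (SE 0.0954, 3.78-fold lower, adjusted p = 1.14e-08) in wild-type and -1.82 (SE 0.0854, 3.54-fold lower, adjusted p = 2.61e-09) in knockout cells. Its other probe set, with a mean level of 6.77, differed by -2.17 and -1.76. The platform annotation names both probe sets Cox7c without a transcript accession, and which Cox7c transcript they read is therefore not known here.

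Cox7a2l, a relative of the VIIa subunits that joins complexes III and IV into supercomplexes and of which C57BL/6 mice are known to carry a short form, fell as well. Its levels were 11.88, 11.90 and 12.04 in the wild-type naive arrays, 12.18, 12.10 and 12.03 in the knockout naive arrays, 10.76 and 10.67 in the wild-type activated arrays and 10.48, 10.69 and 10.55 in the knockout activated arrays. Naive and activated arrays were separated by more than 1 log2 unit. It differed by -1.22 (SE 0.0879, 2.33-fold lower, adjusted p = 2.18e-07) in wild-type and -1.53 (SE 0.0787, 2.89-fold lower, adjusted p = 5.55e-09) in knockout cells, and its 2 other probe sets differed by -1.38 and -1.29 in wild-type cells and by -1.78 and -1.58 in the knockout. Of the other paired forms, Cox4i1 differed by -0.05 and -0.13 and the lung form Cox4i2 by 0.19 and -0.05, none of them called. In wild-type cells Cox4i2 passed without activated array 2, at 0.29 with adjusted p = 0.0156, and with centred arrays, at 0.27 with adjusted p = 0.014. Cox6a1 differed by 0.07 and 0.13, its muscle form Cox6a2 by 0.09 and 0.02, Cox8a by 0.13 and 0.0081, and the testis form Cox8c by 0.08 and -0.04, also without a call, though with centred arrays Cox6a1 passed in knockout cells at 0.22 (adjusted p = 0.018). The muscle form Cox7a1 was below 4.57 on 7 of 11 arrays, and the testis form Cox7b2 on all 11, so for these the differences of 0.15 and -0.14, and of 0.02 and -0.15, are those of dim probe sets; Cox7a1 passed in knockout cells without activated array 3, at -0.22 with adjusted p = 0.0405. The muscle form Cox8b differed by 0.10 in wild-type cells and was called lower in knockout cells at -0.31 (adjusted p = 0.0461), with overlapping arrays, and the call held in 2 of the 11 fits that each left out 1 array. It was lost with centred arrays, at -0.23 with adjusted p = 0.15.

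ATP synthase members rose or did not pass, and none was called lower. In wild-type cells 11 of 17 rose and in knockout cells 13, with medians of 0.27 and 0.31. In the catalytic head and central stalk 4 of 5 rose in each genotype. Atp5b, the catalytic beta subunit, had levels of 12.10, 11.96 and 12.03 in the wild-type naive arrays, 12.00, 11.95 and 11.81 in the knockout naive arrays, 12.53 and 12.70 in the wild-type activated arrays and 12.56, 12.54 and 12.56 in the knockout activated arrays. The rise was 0.58 (SE 0.0836, adjusted p = 7.86e-05) and 0.63 (SE 0.0747, adjusted p = 1.04e-05), with all activated arrays above all naive arrays. Atp5a1, the alpha subunit, rose by 0.38 and 0.30. Its second probe set, of mean level 11.54 beside 11.64, differed by 0.12 (adjusted p = 0.197) in wild-type cells and rose by 0.20 in knockout cells, and the third differed by 0.22 (adjusted p = 0.0803) and rose by 0.34. Atp5d rose by 0.40 and 0.35, in wild-type cells by 0.21 without passing when activated array 2 was left out, and the gamma subunit Atp5c1, the rotating shaft, differed by 0.12 and 0.07 without passing. In the peripheral stalk 2 of 4 rose in wild-type and 3 of 4 in knockout cells, and Atp5h differed by -0.05 and -0.05 without passing. Of 5 further membrane subunits 3 rose in wild-type and 4 in knockout cells, led by Atp5md, which helps enzymes pair into dimers, at 0.69 (adjusted p = 1.34e-05) and 0.65 (adjusted p = 5.39e-06).

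The 3 genes of the c-ring encode the same mature c subunit behind different import sequences, and their changes differed between genes and between probe sets. Atp5g1 had levels of 10.53, 10.34 and 10.32 in the wild-type naive arrays, 10.26, 10.22 and 10.19 in the knockout naive arrays, 11.42 and 11.58 in the wild-type activated arrays and 11.47, 11.55 and 11.56 in the knockout activated arrays. It rose by 1.10 (SE 0.0841, 2.15-fold, adjusted p = 3.59e-07) and 1.30 (SE 0.0752, 2.47-fold, adjusted p = 1.45e-08), the largest rise in ATP synthase in both genotypes. Its other probe set, at a mean level of 3.09, lay under the lowest lower quartile and differed by 0.0096 and 0.094. Atp5g2 had levels of 11.55, 11.51 and 11.54 in the wild-type naive arrays, 11.59, 11.57 and 11.58 in the knockout naive arrays, 11.58 and 11.70 in the wild-type activated arrays and 11.57, 11.72 and 11.64 in the knockout activated arrays. These overlapped in knockout cells, and the differences of 0.11 (adjusted p = 0.285) and 0.07 (adjusted p = 0.459) did not pass. A second Atp5g2 probe set, with a mean level of 5.68, was called higher in both genotypes, at 0.41 (adjusted p = 0.0261) and 0.86 (adjusted p = 3.87e-05), so no direction is settled for Atp5g2. Atp5g3 had levels of 12.61, 12.52 and 12.51 in the wild-type naive arrays, 12.51, 12.49 and 12.43 in the knockout naive arrays, 12.89 and 12.91 in the wild-type activated arrays and 12.92, 12.93 and 12.85 in the knockout activated arrays. It rose by 0.36 (adjusted p = 0.00122) and 0.42 (adjusted p = 9.42e-05). No difference between the c-ring genes was tested.

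A total of 49 members had more than 1 probe set, and the values above are those of the brightest. By their suffix in the platform's naming, the probe sets used hold probes shared with other transcripts for 11 members (_s_at) and 7 members (_x_at), which adds uncertainty for families with close copies. Among members called in wild-type cells, 49 of 56 other probe sets had the same sign (87.5%), 39 of them called, and 7 had the opposite sign with mean levels of 5.20 to 7.08. In knockout cells 59 of 68 had the same sign (86.8%), 50 of them called, and 9 had the opposite sign with mean levels of 4.76 to 7.08. The median level of the other probe sets of the same sign was 10.68 and 10.69. Of those with the opposite sign, 2 were called in each genotype, from Ndufb8 and Cox5b in wild-type and from Ndufs4 and Cox5b in knockout cells.

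**Figure D4:**
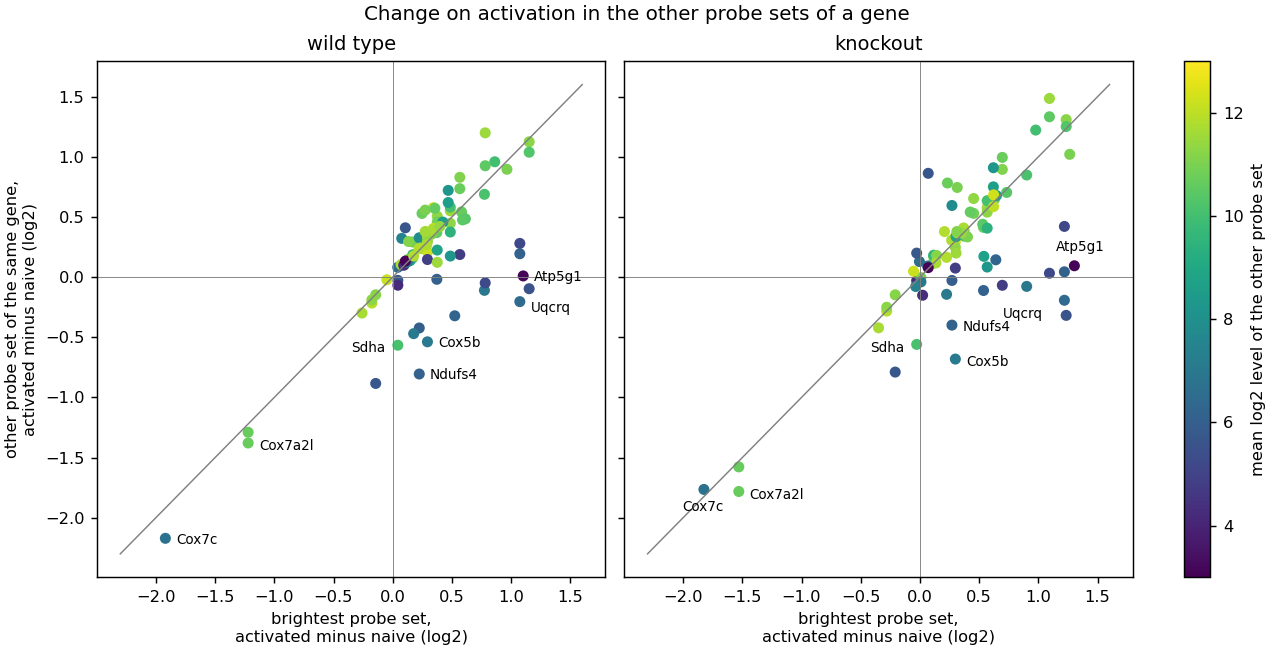
Change on activation in each further probe set of a member (vertical axis, log2) against that in the brightest probe set of the same gene (horizontal axis, log2), in wild-type and knockout cells; each point is 1 probe set, colour gives its mean log2 level and the grey line marks equality. Points of high level follow the line, as those of Cox7a2l do at -1.38 and -1.78, and many points far from it are dark, of low level. Bright points off the line include Sdha at -0.57 and -0.56, and in knockout cells Uqcrb at 0.78 and Atp5k at 0.74.

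The genes that build and feed the chain were counted from lists set by function, to be read beside the 20.2% of all genes that rose and 20.9% that fell in wild-type cells and the 20.7% and 22.4% in knockout cells. The complex II, complex III and ATP synthase lists, of 4, 6 and 5 measured genes, are too short to set against these shares. The falls of the complex IV list lay near them. Of 17 measured complex I assembly factors 15 rose and 1 fell in wild-type and 13 rose and 1 fell in knockout cells, with medians of 0.48 and 0.62. The wild-type calls for Ecsit, Foxred1, Ndufaf5, Nubpl and Tmem186 were each lost without activated array 2. Ndufaf4 rose by 1.32 and 1.61, Ndufaf2, a partner of Ndufa12 in assembly, by 1.30 and 1.44, and Ndufaf6 by 0.93 and 1.40, while Ndufaf3 fell by 0.33 and 0.35; in wild-type cells its call was lost without activated array 1, at -0.22, and without naive array 1, at -0.27. Of 4 complex II factors 2 rose and 1 fell in each genotype: Sdhaf1 and Sdhaf3 rose and Sdhaf4 fell. The wild-type call for Sdhaf3 was lost without activated array 2, at 0.23, and the knockout call for Sdhaf1 without any single knockout naive array, without knockout activated array 1 or 2 and without wild-type naive array 2, at 0.22 to 0.27. Of 6 complex III factors 2 rose and 2 fell in each, with Uqcc2, needed for cytochrome b, at 1.25 and 1.37, and with Bcs1l, which inserts the Rieske protein, at 0.44 and 0.65. Without wild-type activated array 2 the rise of Bcs1l was 0.24 and did not pass. Ttc19 fell by 0.72 and 0.58, and Uqcc3 by 0.69 and 0.87. Of 21 complex IV factors 9 rose and 5 fell in wild-type and 13 rose and 4 fell in knockout cells. Some of these calls were lost in at least 1 fit that left out 1 array. They were those for Cox15, Cox16, Cox19 and Cmc2 in wild-type and for Coa3, Cox10 and Cox15 in knockout cells. Higd1a rose by 0.93 and 1.08, the copper chaperone Sco2 by 0.86 and 1.14, and Coa7 by 0.81 and 0.93, while Cox20 fell by 0.67 and 0.73. Of 5 ATP synthase factors 3 and 4 rose, with Tmem70, which helps form the c-ring, at 0.96 and 1.30 and with Atpaf1 and Atpaf2, chaperones of the beta and alpha subunits, at 0.55 and 0.45 in wild-type cells and at 0.68 and 0.50 in the knockout. Without wild-type activated array 2 that of Atpaf2 was 0.24 and did not pass.

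Upstream of the chain, 6 of 12 tricarboxylic acid cycle genes rose in wild-type and 8 in knockout cells, and 0 fell. Fumarase Fh1 rose by 0.94 and 1.06, Idh3a of isocitrate dehydrogenase by 0.71 and 1.02, and Sucla2 of succinyl-CoA ligase by 0.56 and 0.64. Dld, a subunit shared by the pyruvate and 2-oxoglutarate dehydrogenases, rose by 0.47 and 0.93. Of 14 genes that make ubiquinone or deliver electrons to it, 8 rose and 1 fell in wild-type and 11 rose and 1 fell in knockout cells. The ubiquinone synthesis genes Coq7, Coq4 and Coq3 rose by 1.18, 1.17 and 1.09 in wild-type and by 1.72, 1.39 and 1.48 in knockout cells, and Coq8a fell by 0.48 and 0.60. Of 8 nucleotide and phosphate carriers and porins 5 and 6 rose, among them the porins Vdac1 by 0.57 and 0.69 and Vdac3 by 0.43 and 0.61, and the adenine nucleotide translocator Slc25a5 by 0.44 and 0.60. Of 12 genes that copy and express mitochondrial DNA 8 rose and 1 fell in wild-type and 10 rose and 1 fell in knockout cells. Slirp and Lrpprc, which together bind mitochondrial messenger RNA, rose by 1.33 and 1.14 in wild-type cells and by 1.43 and 1.46 in the knockout. Tefm, a transcription elongation factor, rose by 1.09 and 1.51, and Polg, the mitochondrial DNA polymerase, fell by 0.58 and 0.64. Leaving out 1 array removed the wild-type call for Tfam, except without wild-type naive array 3 or knockout naive array 3. Calls lost in at least 1 such fit were also those for Suclg1, Coq5, Vdac2 and Slc25a3 in wild-type cells. In knockout cells they were those for Dlst, Etfa, Slc25a3 and Slc25a4.

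Of 11 nuclear regulators of respiratory genes 3 rose and 2 fell in wild-type cells, and 3 rose and 3 fell in knockout cells, a share near that of all genes. The knockout fall of Yy1 was not called without knockout activated array 2 or 3, or without knockout naive array 1 or 2. Myc rose by 2.10 and 2.22, and Pprc1, a growth-regulated coactivator related to PGC-1alpha, by 1.41 and 1.54, while Creb1 fell by 0.90 and 0.82. The messenger RNA of Nrf1 differed by 0.0008 and -0.12, that of Gabpa by -0.09 and 0.14 and that of Ppargc1a by 0.04 and 0.09, without passing. No gene of these pathway lists passed in either genotype comparison or in the interaction.

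Between genotypes, no member passed the threshold in limma. In naive cells 0 of 83 members were called, beside 0.148% of all genes, 0.0769% higher and 0.0715% lower. An unadjusted p under 0.05 was found for 7 members in naive cells, beside 14.5% of all genes, and limma with array quality weights called 3 members (Cox6b2, Cox8b and Ndufb1). In activated cells 0 members were called, beside 0.0605% of all genes, 0.044% higher and 0.0165% lower, and an unadjusted p under 0.05 was found for 1 member, beside 6.90%. The median difference, knockout minus wild type, was -0.03 in naive and -0.0045 in activated cells, the latter turning to 0.025 with arrays centred on their medians. The 95% intervals of the difference lay within 1.5-fold in either direction for 80 of 83 members in naive and 82 of 83 in activated cells, with a median half-width of 0.16 and 0.18 log2 units. The naive arrays of the genotypes did not overlap for 18 members (21.7%), of which 13 were lower in the knockout, beside 20.4% of all genes, and the activated arrays for 7 (8.43%), beside 19.4%.

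**Figure D5:**
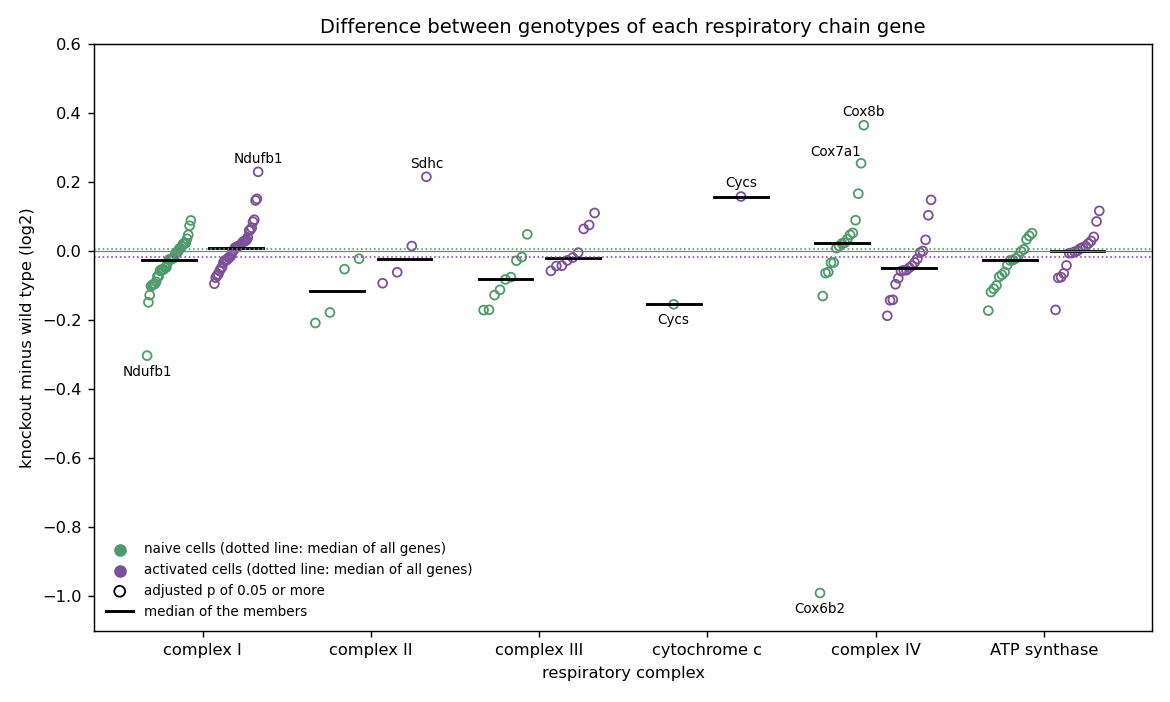
Difference between genotypes (knockout minus wild type, log2) of each member by complex, naive cells in green and activated cells in purple; each point is 1 gene, all points are open because each has an adjusted p of 0.05 or more, bars are medians over the members and dotted lines the medians of all genes. Nearly all points lie within 0.3 of 0, and Cox6b2 in naive cells lies at -0.99.

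The smallest p-values in naive cells were those of 3 tissue forms of complex IV. Cox6b2, the testis form of subunit VIb, had levels of 7.34, 6.93 and 6.31 in the wild-type naive arrays, 6.29, 5.66 and 5.66 in the knockout naive arrays, 5.47 and 5.63 in the wild-type activated arrays and 5.59, 5.44 and 5.38 in the knockout activated arrays. The wild-type and knockout naive arrays touched without overlapping, since wild-type array 3 and knockout array 1 lay at 6.31 and 6.29. The difference was -0.99 (SE 0.219, 95% interval -1.47 to -0.51, adjusted p = 0.102). It passed without wild-type naive array 3, at -1.26 with adjusted p = 0.0188, and without knockout naive array 1, at -1.20 with adjusted p = 0.0453. The summed level of 10 erythroid markers in the same arrays was 13.21, 12.20 and 11.33 in wild-type naive, 11.78, 10.41 and 9.97 in knockout naive, 10.13 and 10.14 in wild-type activated and 10.41, 9.91 and 9.60 in knockout activated cells. None of these 10 markers was below the lower quartile on all arrays, and 0 were called between genotypes. In naive cells 8 of the 10 had an unadjusted limma p under 0.05, beside 14.5% of all genes. Their median difference there, knockout minus wild type, was -1.33. Within each naive group the arrays stood in the same order in Cox6b2 and in the erythroid sum, apart from 2 knockout arrays at 5.66 each. That order is also the order of the replicate numbers, so the 2 cannot be told apart there. With the replicate number as a block in limma the Cox6b2 difference passed, at -0.99 with adjusted p = 0.018. The part of erythroid RNA in the Cox6b2 difference was not tested. On activation Cox6b2 fell by 1.31 in wild-type cells (SE 0.245, adjusted p = 7.00e-04) and differed by -0.40 (adjusted p = 0.173) in knockout cells, while 5 of the 10 erythroid markers fell in wild-type and 2 in knockout cells.

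Cox8b differed between the naive genotypes by 0.36 (adjusted p = 0.199), with levels of 5.94, 6.01 and 6.01 in the wild type and 6.04, 6.43 and 6.58 in the knockout, and without knockout naive array 1 by 0.52 with adjusted p = 0.0422, which passes. Cox7a1 differed by 0.25 (adjusted p = 0.203) at a dim level. In activated cells the smallest p-values were those of Cox4i2 at -0.19, Sdhc at 0.22 and Atp5a1 at -0.17, with a lowest adjusted p of 0.682.

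Whether the response to activation differed between genotypes was tested as the interaction, the knockout change minus the wild-type change. It called 0 members and 0 of all genes (0%), with an unadjusted p under 0.05 for 9 members and for 13.8% of all genes. The knockout change was the larger, in signed value, for 51 of 83 members (61.4%) and for 45.0% of all genes, and the median interaction of the members was 0.04. The sign of that median depended on wild-type activated array 1: it was -0.025 without array 1 and 0.098 without array 2. The 95% interval lay within 1.5-fold for 77 of 83 members, with a median half-width of 0.24. In the second Sdhc probe set the interaction was 0.036. The smallest p-values were those of Sdhc at 0.39 (95% interval 0.10 to 0.69, adjusted p = 0.287), Cox6b2 at 0.91 (95% interval 0.20 to 1.63, adjusted p = 0.292) and Ndufb1 at 0.53 (95% interval 0.10 to 0.96, adjusted p = 0.298). The 13 members called in knockout cells alone are therefore not shown to respond differently in the wild type, where the activated group held 2 arrays.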

How the data were processed

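The deposited values are log2 expression values of 45101 probe sets in 11 arrays, made by the authors with GCOS, RMA and Partek per the submitters' processing notes, with no versions given there. They were used as deposited and held 0 missing values. Probe sets with 1 symbol in the platform annotation (34958) were kept, those with several (932) or none (9211) were left out, and the brightest probe set on average stood for its gene, which gave 18194 genes. Group means were fitted with limma 3.58.1 in R 4.3.3 over all 11 arrays (prior degrees of freedom 5.46, residual 7), with Benjamini-Hochberg adjustment over all genes and a threshold of 0.05, checked on simulated data. P-values measure the spread between these arrays, whose small number limits the precision. Medians over members are descriptions without a test, and the subgroups within complexes were set after values were seen.

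The members and lists were chosen with earlier results of these data known. Genes named with values were the up to 3 largest called rises and falls of each complex in each activation comparison, the Sdh genes, Cycs, Cyc1, the tissue forms of complex IV, the 3 smallest p-values between genotypes and in the interaction, and up to 3 genes of each pathway list; Ndufs7, Ndufs8, Ndufv1, Ndufa4, Atp5a1, Atp5d, Atp5c1, Atp5h, Atp5g2, Atp5g3, Atp5mpl, Cox6c, Ndufb8, Ndufs4, Ndufaf3, Cox20, Coq8a, Polg, Nrf1, Gabpa and Ppargc1a were added after their values were seen. Replicate numbers were checked as pairs. Same-numbered arrays of different groups correlated between -0.30 and 0.39 in their deviations from the group means, 7 of 15 pairs above 0.1. Arrays of unlike number correlated between -0.35 and 0.30, 6 of 30 pairs above 0.1. The medians were 0.087 for like and -0.049 for unlike numbers. The values of -0.30 and 0.30 came from pairs with the wild-type activated group, whose 2 arrays deviate in mirror image. Without that group, same-numbered pairs ran from -0.011 to 0.39 and pairs of unlike number from -0.35 to 0.12. Since not all same-numbered pairs correlated, the numbers were not treated as pairs in the main fit. An effect shared by arrays of the same number may therefore remain in it. With the number as a block in limma, Cox6b2 passed between naive genotypes, at -0.99 with adjusted p = 0.018. The labels do not say whether same-numbered arrays share a batch. Alternatives changed the probe set of a gene, the filter on dim genes, the normalization, the variance model, the arrays in the fit, array weights, the replicate block and each array left out in turn. Start regions came from RefSeq (GRCm38.p6). Python 3.11.15 with pandas 2.3.3 handled the tables, and matplotlib 3.10.9 drew the figures.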

Additional observations from a re-analysis of the deposited data

How the results depend on the processing

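The number of members called stayed between 42 and 57 in wild-type and between 56 and 65 in knockout activation under the alternatives that keep all arrays of the comparison, and between 39 and 51 and between 54 and 60 when 1 array was left out. Of the 50 wild-type calls 34 held in all 11 such fits, and of the 61 knockout calls 50. Between genotypes in activated cells and in the interaction the count was 0 under each alternative run; the interaction could not be fitted on only the compared arrays as that is the full fit. In naive cells it was 0 to 2 with 1 array left out, 3 with array quality weights and 1 with the replicate number as a block (Cox6b2). The replicate block gave 48 wild-type and 60 knockout calls on activation and a complex IV median of 0.13 in wild-type cells, and changed no other count by over 1.5 times. The second brightest probe set reversed Uqcrq, to -0.20 in wild-type and -0.19 in knockout cells, and Sdha, to -0.57 in wild-type cells; in both cases it is another, dimmer probe set. Medians by complex moved as follows, wild type first where both are given. Centring each array on its median gave 0.30 and 0.38 for complex I, 0.35 and 0.54 for II, 0.41 and 0.48 for III, 0.18 and 0.047 for IV, 0.35 and 0.39 for ATP synthase and 0.32 and 0.38 for all members, with all genes at 0.13 and 0.05; it turned the sign of the knockout complex IV median, and the wild-type falls of Ndufa6, Ndufb10 and Uqcrh no longer passed. The second brightest probe set gave 0.15 and -0.078 for complex IV, and in knockout cells 0.28 for II and 0.37 for ATP synthase. In knockout cells the mean of the probe sets gave 0.37 for II and 0.34 for ATP synthase, quantile normalization 0.35 for III, 0.27 for ATP synthase and 0.25 for all members, genes above the median level 0.078 for IV, and array weights -0.0067 for IV and 0.00052 for the interaction of all members. With 1 array left out, the medians ranged from 0.16 to 0.33 for complex I, 0.31 to 0.40 for III, 0.086 to 0.15 for IV, 0.23 to 0.33 for ATP synthase and 0.20 to 0.32 for all members in wild-type cells, and from -0.056 to -0.0019 for complex IV in knockout cells. Between activated genotypes the median of all members ranged from -0.072 to 0.044, and in the interaction from -0.025 to 0.098. Why these values moved was not tested. With 2 wild-type activated arrays, leaving out 1 leaves a single array that is assumed to vary like the other groups.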

Other observations

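The start regions of the members were also set beside their response, as a description without a test. Of the 39 promoters of 36 genes that rose in both genotypes, 20.5% held the ETS motif, 12.8% the NRF1 motif, 7.69% the cyclic AMP response element, 7.69% the E-box and 30.8% CCAAT within the 250 bases before the start. Of the 33 promoters of the 31 other members, 12.1% held the ETS motif, 21.2% the NRF1 motif, 3.03% the cyclic AMP response element, 12.1% the E-box and 54.5% CCAAT. These shares rest on 5 against 7 promoters for NRF1 and on 12 against 18 for CCAAT. They count the same site in both promoters of Ndufa5 (NRF1, genes that rose), Ndufa7 (E-box, other members) and Atp5c1 (CCAAT, other members). The 2 sets share no gene.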
